A study of Mus musculus with 3 samples.

Results

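Tail-to-tail gene pairs are neighbours on opposite strands that are transcribed toward each other and whose gene bodies cross at their 3′ ends, so that exons of one overlap exons of the other. Here 668 such pairs of protein-coding genes were examined in mouse T-helper 1 cells. A pair was taken when both genes were autosomal and protein-coding, their exons shared at least 50 bases, the plus-strand gene started first and ended inside the minus-strand gene, and the minus-strand gene reached beyond it. The pairs hold 1328 of 20620 autosomal coding genes, of which 8 belong to 2 pairs, and they are 668 of the 1203 opposite-strand coding pairs with that much shared exon in any arrangement. The rule used coordinates and not expression, but the members were chosen with earlier results of these data known.

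The data are RNA-seq gene counts from primary T-helper 1 cells, with 3 biological replicates in 1 group, and the strain is C57BL/6NJ. The labels give age as unknown and sex as not collected, name no treatment, and point to a CD4 T cell differentiation protocol, while the file headers carry a 16 hr tag. The replicates have their own biosample records but share a donor record, so their spread may be partly technical. With no second condition, genes of a pair were compared within each library, and neighbouring pairs in the same orientation that do not overlap served as the background.

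When convergent genes share their 3′ ends, the mature RNAs of both carry stretches that are complementary to each other, and RNA polymerases that pass the end of one gene run into the other. In strand-aware counting, the strand of a read decides which of the 2 genes receives it inside the shared stretch. Genes without an opposite exon depend on the strand setting as well, because reads of the other strand are not counted for them. The headers record strand setting 1 for these tables. Which strand the library kit marks is not given in the sources used here, and the setting could not be checked against it. If the kit marks the other strand, reads in a shared stretch were given to the wrong gene, and which gene of a pair is the higher one could turn. Under the recorded setting, some values are unlike what is known of these RNAs. Among the mitochondrial mRNAs, mt-Nd6 is the one encoded on the other strand and is known as a scarce RNA. It had 17591, 14162 and 19256 counts in replicates 1, 2 and 3, where the 12 others summed to 24803, 14297 and 8787. Of these 12, 6 had 0 counts in every library, while mt-Co1, on the same strand as those 6, had 8179, 4091 and 2341. The source of the zeros, which lower the sum, was not tested. Core machinery genes without an opposite exon (families listed further on) had medians of 124, 58.3 and 45.5 counts per kilobase over 521 genes. The 73 core machinery genes in member pairs had 183, 99.1 and 90.4. These medians do not tell which strand the kit marks. Every level and direction below is therefore that of the deposited counts under strand setting 1, and may not be the level of the named gene's own RNA.

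Each RNA of such a pair is cleaved and given its poly(A) tail inside the gene body of the other, downstream of a hexamer that marks the cleavage site. The hexamers at both ends of 4 pairs are shown because they fix where each RNA is annotated to stop. The windows are 30 bases of the transcript strand, 5′ to 3′, and the capitals mark the hexamer.
Phykpl: ctctttaaatgtAATAAAaacaaaaccccg
Hnrnpab: gtagttttcttaAATAAAttgagggagacc
Tsr1: ttgaagcactttAATAAAagttgtatctga
Srr: cgccatctcttcAATAAAacttttgtttac
Ptbp1: tggtgtactcacATTAAAtcttaaaaaaaa
Plppr3: gcttaccaggccATTAAAttcaatctacta
1700022I11Rik: cctcatattttaAATAAAatcgcattaatc
Vcp: ttgtaaaaggacAATAAAtgttgggtcaaa
These are the 4 pairs with the most counts in which both annotated ends hold a hexamer. On GRCm38 the Phykpl window lies at chr11:51604457-51604486 on the plus strand and the Hnrnpab window at chr11:51600103-51600132 on the minus strand, upstream of it in chromosome coordinates, which is what makes the tails cross. The Tsr1 window is at chr11:74909308-74909337 (plus) and that of Srr at chr11:74906359-74906388 (minus). Those of Ptbp1 and Plppr3 are at chr10:79864739-79864768 (plus) and chr10:79860479-79860508 (minus), and those of 1700022I11Rik and Vcp at chr4:42983610-42983639 (plus) and chr4:42979968-42979997 (minus).

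Annotated ends could be matched to a GENCODE vM21 transcript for 1254 of the 1328 genes. In the last 40 bases of the transcript strand, AATAAA was found in 54.1% of these, against 56.8% of 18870 autosomal coding genes, and AATAAA or ATTAAA in 67.0% against 69.5%. Genes with crossing tails thus carried these letters about as often as other coding genes. Both ends lay in an exon of the other gene in 291 pairs, 1 end did in 252 pairs, and in 125 pairs neither did. Of 425591 overlapping bases, 68.5% were outside the coding sequence of both genes. The overlap held no coding sequence in 264 pairs, coding sequence of 1 gene in 292 and of both genes in 112.

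The overlap ranged from 50 to 4652 bases with a median of 395, and formed a single block in 446 pairs. Per gene it covered between 0.357% and 94.8% of the exon length, with a median of 9.85%. Because the shared bases are the same for both genes of a pair, the more-overlapped gene of a pair is always the one with the shorter exons. At the edge of the rule, the 44 genes of 22 pairs with an overlap of 50 to 59 bases had medians of 16.5, 11.6 and 6.85 counts per kilobase of exon in replicates 1, 2 and 3, and the 34 genes of 17 pairs just outside it, at 40 to 49 bases, had 47.96, 23.0 and 23.6.

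Total counts were 4764598, 2568928 and 2815439 in replicates 1, 2 and 3. The 13 T cell markers examined had at least 10 counts in every library and sums of 13372, 6247 and 5540, with Cd4 at 2208, 984 and 787. The 5 T-helper 1 markers summed to 190, 96 and 116 counts, and 2 of them, Il12rb2 and Stat4, had at least 10 in every library. Stat4 had 64, 11 and 22, Tbx21 2, 10 and 2, Ifng 1, 0 and 0, and Cxcr3 0, 0 and 1. The 5 B cell markers summed to 28, 0 and 17 counts, and the neutrophil and erythroid markers had 0 in every library. The 5 macrophage markers summed to 1348, 700 and 1072, nearly all on Csf1r with 1338, 698 and 1066, while Lyz2, Adgre1 and Itgam were at 0. Csf1r is itself a member gene, with 871 exon bases shared with Hmgxb3. So are Il12rb2, which held most of the T-helper 1 marker counts in every library, and the T cell marker Cd247. The shared part is 40.04% of the exons of Il12rb2 and 56.4% of those of Cd247. In the shared stretches, the strand setting decides whether reads go to Csf1r, Il12rb2 and Cd247 or to their partners. The 5 NK and CD8 markers summed to 98, 15 and 36, and the 4 stromal ones to 58, 27 and 20. Replicate 2 stood apart at low counts. Of member genes with at least 10 counts in both other libraries, 14 of 1129 were at 0 in replicate 2, against 0 of 1079 in replicate 1 and 0 of 1089 in replicate 3. Over all autosomal coding genes, 170 of 8577 had that pattern in replicate 2, against 0 of 7967 in replicate 1 and 6 of 8317 in replicate 3.

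Genes with crossing tails were assigned far more counts than other coding genes. The excess cannot be told apart from reads of the partner counted on the wrong strand, which only genes with an opposite exon can receive in the shared stretch. They are 6.44% of autosomal coding genes and 7.84% of their exon length, yet received 26.1%, 30.5% and 37.8% of the counts on autosomal coding genes in replicates 1, 2 and 3, and 20.2%, 22.7% and 24.9% of all counts. At least 10 counts in every library were found for 1078 of 1328 member genes (81.2%), where 38.5% of all autosomal coding genes and 32.0% of those that meet no exon of the other strand reached that level. Of 3385 other autosomal coding genes with exons of the other strand 52.2% did, and of 3608 genes of convergent pairs without overlap 45.6%. The share of coding counts was highest in replicate 3, the library in which the 15907 genes without an opposite exon held the least, with 53.8%, 49.99% and 40.3%. The source of this shift between libraries was not tested. In bulk RNA, cell number, RNA per cell and reads counted on the wrong strand cannot be told apart behind it.

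The median member gene had 48.8, 28.8 and 27.8 counts per kilobase in replicates 1, 2 and 3. Other coding genes with exons of the other strand had medians of 8.89, 3.82 and 3.93. Genes of convergent pairs that do not overlap had medians of 5.67, 2.48 and 2.74, and genes without an opposite exon 0.219, 0 and 0. The difference was also found within classes of exon length. Among genes of 2 to 4 kb, 389 members had medians of 72.9, 40.7 and 39.4 counts per kilobase against 0.318, 0 and 0 for 5385 genes without an opposite exon. At 8 kb or more, 185 members had 29.5, 17.7 and 17.2 against 5.42, 2.42 and 1.92 for 1538 genes. Distance between convergent genes went with the level as well, since genes with a gap of at most 500 bases had medians of 12.2, 5.71 and 5.69, and genes at a gap above 2 kb had 2.53, 0.957 and 1.62.

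Median counts per kilobase were higher in each library the larger the overlapped share of exon length. Where the overlap covered less than 5% of the exons (399 genes), the medians were 31.9, 17.4 and 17.1 counts per kilobase in replicates 1, 2 and 3. At 5 to 10% (269 genes) they were 53.3, 36.9 and 32.5, at 10 to 25% (404 genes) 63.5, 37.1 and 38.8, and at 25 to 50% (205 genes) 68.0, 44.0 and 47.8. At 50% or more (51 genes) they were 171, 91.2 and 120. The last group stood above the first by 2.54 ± 0.24 on the log2 scale (SD, n = 3), and by 1.69 among genes whose exons meet no further gene. The share of genes with at least 10 counts in every library was 78.2% in the first group and 84.3% in the last. The partners of these genes differed the same way, with medians of 36.8, 21.6 and 19.996 counts per kilobase for the first group and 112, 47.2 and 66.2 for the last. Exons were shorter where the share was larger (median 5347 bases in the first group, 2857 in the last), and Spearman's rho across the 1328 genes was 0.217, 0.210 and 0.239 for share against level and -0.300 for share against length. Genes share libraries and partners here, so these values describe the set.

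**Figure D1:**
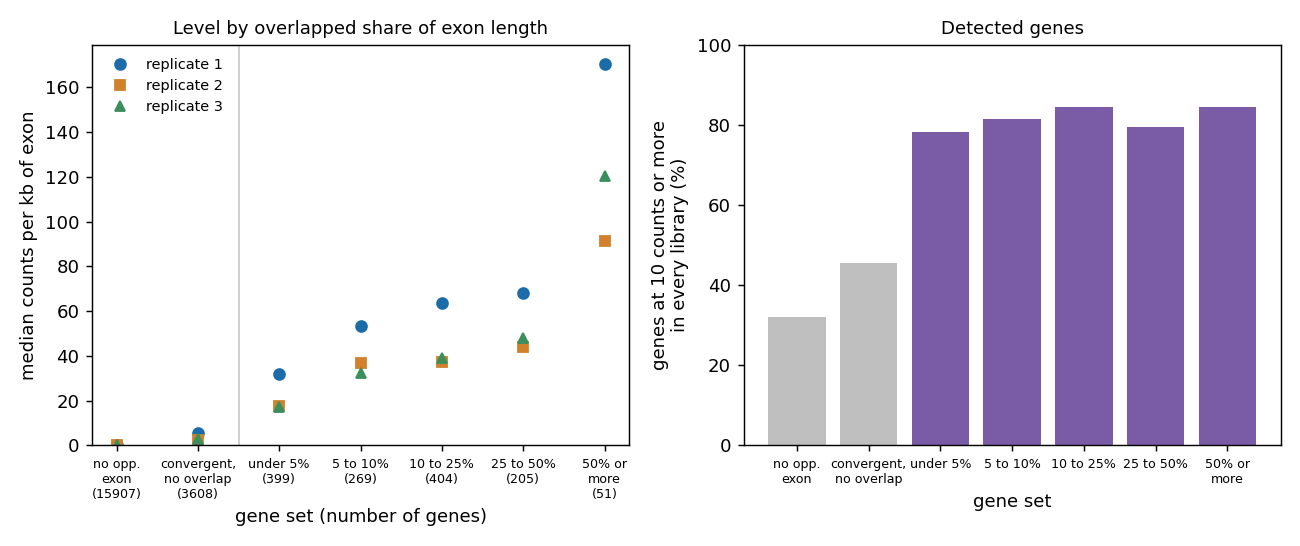
Left, median counts per kilobase of exon in each library (points) for coding genes without an opposite exon, genes of convergent pairs without overlap, and member genes by the overlapped share of their exon length, with the number of genes under each. Right, the percentage of each set with at least 10 counts in every library, as bars: 32.0% without an opposite exon and 78.2% to 84.4% in the member groups.

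The counts of a pair, summed over both genes and not divided by exon length, were also higher where the overlap itself was longer. The part of exon length in this was not tested. Among the 167 pairs with 50 to 157 shared bases the median pair held 383, 203 and 223 counts, and among the 167 with 918 to 4652 shared bases it held 1176, 736 and 965. Across pairs, Spearman's rho between shared bases and pair counts was 0.302, 0.314 and 0.356 in replicates 1, 2 and 3 (n = 668 pairs).

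Within pairs, both genes were usually counted. At least 30 counts over both genes and the 3 libraries were found for 607 of 668 pairs (90.9%), against 72.7% of 1813 convergent pairs without overlap, and the comparisons within pairs use these. Both genes had at least 10 counts in every library in 501 of the 607 pairs, and in 453 of 1318 background pairs. The median lower gene of a pair had 34.8, 18.9 and 17.9 counts per kilobase, where the background pairs had 2.70, 0.802 and 1.94. The higher gene had 120, 72.5 and 85.7 against 44.7, 22.4 and 17.5.

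The absolute log2 ratio between the genes of a pair had medians of 1.72, 1.90 and 2.14 in replicates 1, 2 and 3, and of 3.58, 3.89 and 2.75 in the background pairs. A difference of at least 4-fold one way in every library was found in 213 pairs (35.1%), where 53.7% of background pairs had one. Both genes stayed within 2-fold in every library in 76 pairs (12.5%), against a background of 7.06%. The size and sign of this difference depended on the filter. Among pairs with at least 10 counts on both genes in every library, a setting added after the data were seen that itself removes pairs with a low gene, the mean of the medians was 1.76 in members and 1.45 in the background, and without a filter on counts the difference between the sets was -0.58 in place of -1.49. Levels of the genes of a pair went together across pairs, with a Spearman's rho of 0.472, 0.426 and 0.337, where background pairs had -0.168, -0.126 and -0.0518. Changes from library to library were another matter. The Pearson correlation across 499 pairs of the deviations of both genes from their own mean log2(CPM + 1), after TMM scaling, was -0.45, 0.04 and -0.18 in replicates 1, 2 and 3, and -0.04, 0.05 and 0.01 in 439 background pairs, so in replicate 1 a gene above its own mean tended to have a partner below it. The pairs share libraries and scaling, and these values describe the set.

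**Figure D2:**
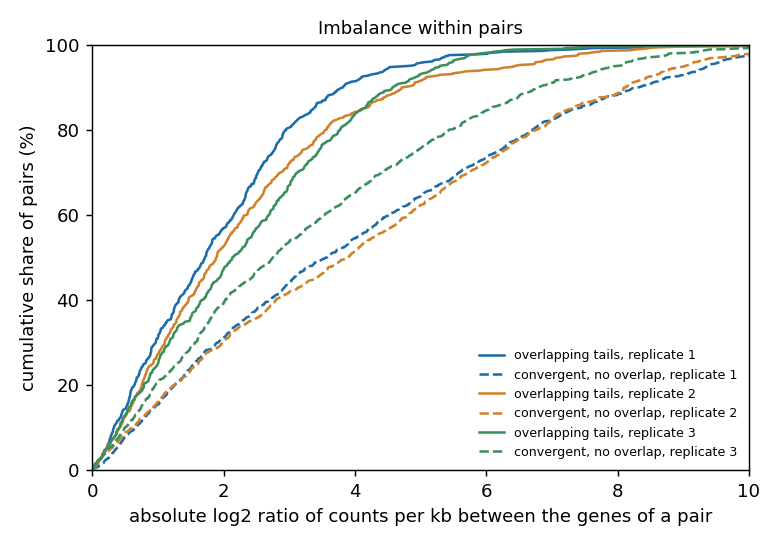
Cumulative share of pairs (y axis, percent) by the absolute log2 ratio of counts per kilobase between their genes (x axis, 0.5 counts added to each gene), for 607 pairs with overlapping tails (solid) and 1318 convergent pairs without overlap (dashed), 1 colour per library. The solid lines lie to the left in each library, with medians of 1.72 to 2.14 against 2.75 to 3.89.

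The direction within pairs was the same in all 3 libraries in 509 of 607 pairs (83.9%), close to the 86.0% of background pairs. The plus-strand gene was higher in 265 pairs (43.7%), beside 43.6% in background pairs, and the minus-strand gene in 244. The more-overlapped, shorter gene was higher in every library in 287 pairs (47.3%) and lower in 222, where the shorter gene was higher in 39.2% of background pairs. The median log2 ratio of the more- to the less-overlapped gene was 0.44 ± 0.04 (SD, n = 3), and that of the shorter to the longer gene in background pairs -0.51 ± 0.15. In raw counts, not divided by length, the more-overlapped gene was the lower one, at -0.55 ± 0.07, and the background stood at -1.59 ± 0.08.

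In the 10 pairs with the most counts, 1 gene was far above the other in most cases, and it was the plus-strand gene in some and the minus-strand gene in others. Phykpl, an enzyme of hydroxylysine breakdown, had 4795, 3294 and 4041 counts per kilobase in replicates 1, 2 and 3, and Hnrnpab, an RNA-binding protein gene, had 2171, 860 and 1017. Their exons share 809 bases on chromosome 11, or 8.34% of Phykpl and 29.1% of Hnrnpab, and Phykpl was 3.23-fold higher with a log2 ratio of 1.69 ± 0.47 (SD, n = 3). Tti2, a cochaperone of large kinases, had 10974, 7138 and 9233 counts and Mak16, a ribosome assembly factor, 1398, 626 and 581. The 3 values of the higher gene lay above all 3 of its partner in counts per kilobase in both pairs.

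In 5 further pairs the minus-strand gene was the higher one as counted, an order that could turn if the kit marks the other strand. Srr, serine racemase, known for making D-serine in brain, had 10139, 6831 and 8392 counts, while Tsr1, a factor of small ribosomal subunit maturation, had 1131, 721 and 432. Per kilobase Srr was 9.94-fold higher (log2 ratio of Tsr1 to Srr -3.31 ± 0.62; SD, n = 3). Map3k12, a stress kinase studied in neurons, had 10009, 7095 and 7953 counts against 1599, 747 and 495 for Pcbp2, a poly(C)-binding protein, although the 1571 shared bases make up 54.8% of Pcbp2 and 17.5% of Map3k12. Plppr3, a phospholipid phosphatase-related membrane protein of neurons, had 8741, 3978 and 7532 counts against 1782, 877 and 669 for Ptbp1, a splicing regulator. Samd11, known from retina, had 8076, 4228 and 7604 against 1933, 915 and 895 for Noc2l, a nucleolar gene. Pip4p1, a lipid phosphatase, had 9632, 6637 and 7770 against 832, 586 and 391 for Apex1, the main abasic site endonuclease of DNA repair. In each of these 5 pairs the ranges of counts per kilobase did not overlap.

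Of the remaining pairs among the 10 with the most counts, Acat3, a thiolase, stood 6.48-fold above Tcp1, a subunit of the cytosolic chaperonin (log2 ratio of Tcp1 to Acat3 -2.70 ± 0.34; SD, n = 3). The pairs with ribosomal protein genes were unlike each other. Rpl23a had 6336, 2591 and 2536 counts per kilobase and its partner Tlcd1, a TLC domain membrane protein, 5195, 3240 and 4322, so that Rpl23a was higher in replicate 1 and Tlcd1 in replicates 2 and 3. Rpl32 had 7318, 3555 and 3144 counts per kilobase, above Cand2, a gene of muscle, with 991, 848 and 666. Their overlap is 53 bases, the least of these 10 pairs.

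**Figure D3:**
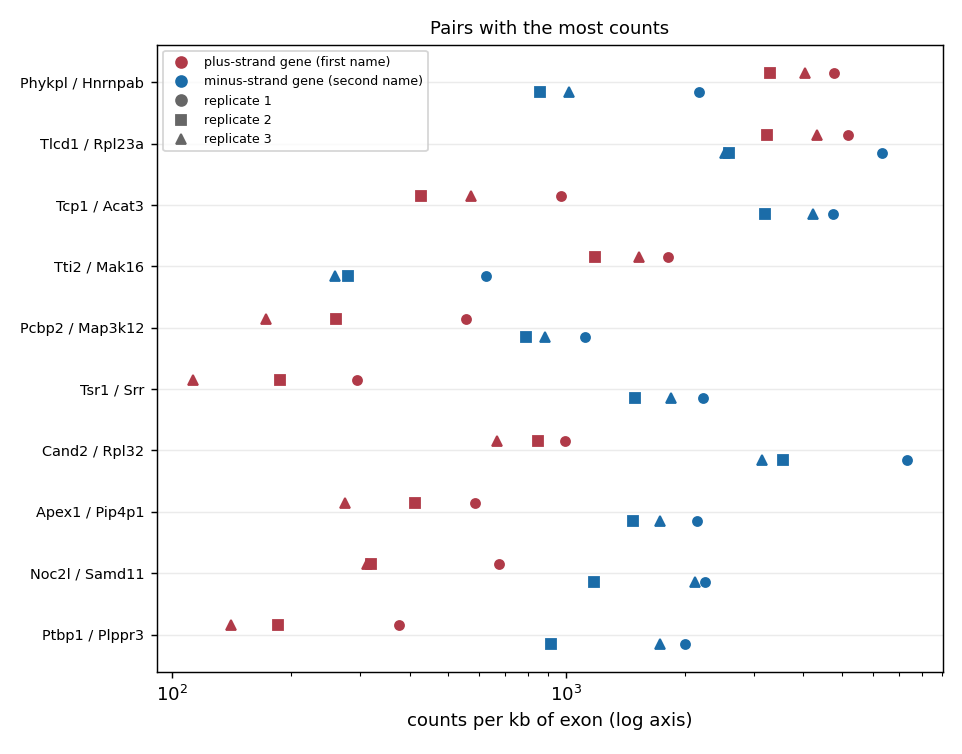
Counts per kilobase of exon (log x axis) of both genes in the 10 pairs with the most counts, the plus-strand gene in red and the minus-strand gene in blue, 1 symbol shape per replicate. In 9 of the 10 pairs the colours do not overlap, and in Tlcd1 and Rpl23a they do.

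Core machinery genes were chosen by name from families of ribosome, proteasome, splicing, transcription, 3′ end processing, translation, respiration and replication. The list also takes chaperones, phosphatase catalytic subunits, protein sorting and import (Vps, Tomm, Timm), and the Cops, Exosc and Anapc families. Genes of this list were present in 69 pairs, with 4 pairs holding one on each strand. In the 65 pairs with exactly 1 such gene, it was the higher gene in every library in 29 pairs, the lower in 25 and changed sides in 11. In background pairs a core machinery gene was higher in 76.7% and lower in 12.7% of 150 pairs. The core genes themselves had medians of 159, 89.6 and 90.4 counts per kilobase in overlapping pairs and 131, 61.1 and 48.1 in the background. Their partners were much further apart, at 156, 85.4 and 105 counts per kilobase against 11.4, 5.91 and 5.38. The median log2 ratio of core gene to partner was 0.11 ± 0.19 in overlapping pairs and 3.83 ± 0.40 in the background (SD, n = 3). Where the overlap reached the list's median of 420 bases, the core gene was lower in 16 and higher in 13 of 33 pairs, and below it lower in 9 and higher in 16 of 32.

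**Figure D4:**
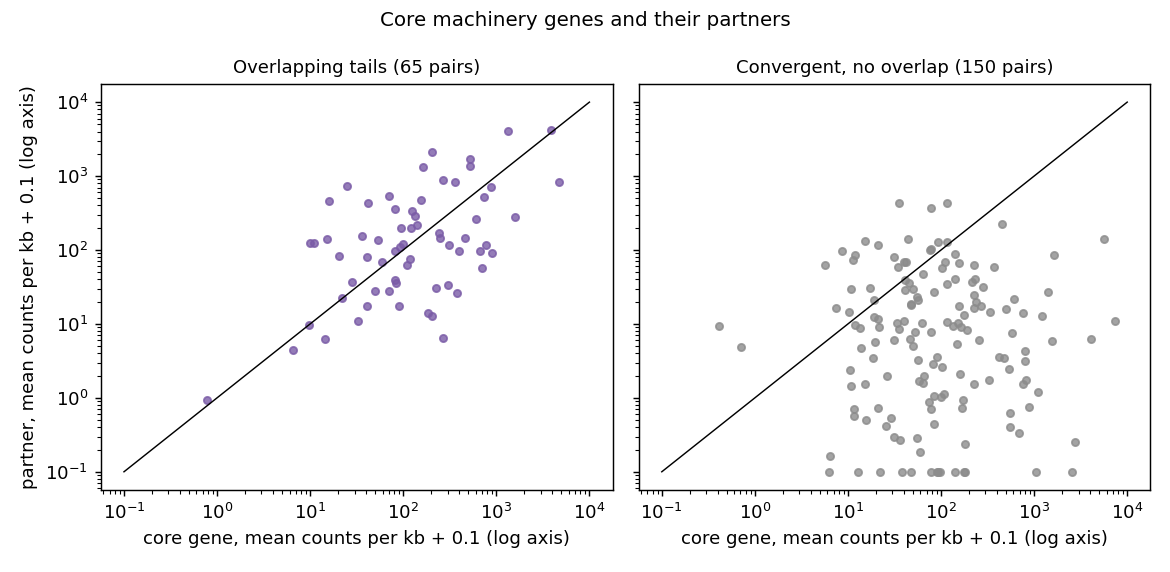
Mean counts per kilobase over the 3 libraries of the core machinery gene (x axis) and its partner (y axis), both with 0.1 added on log axes, 1 point per pair, with the line of equality. In the 65 overlapping pairs the points lie on both sides of the line, and in the 150 background pairs most lie below it.

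Beside Hnrnpab, Rpl23a and Rpl32, the core pairs with the most counts went both ways. Nek6, a mitotic kinase, had 7110, 4398 and 5579 counts against 444, 145 and 132 for Psmb7, a catalytic subunit of the proteasome, and was 8.72-fold higher per kilobase. Cox20, an assembly factor of cytochrome oxidase whose exons are 91.1% overlapped, had 1328, 1288 and 1496 counts per kilobase, above Hnrnpu, an RNA-binding protein of the nuclear matrix, with 778, 396 and 387. In raw counts Hnrnpu was the higher one, at 9026, 4590 and 4485 against 1173, 1137 and 1321, since its exons are 11599 bases long and those of Cox20 883. Rps25, a small subunit ribosomal protein, stood 5.72-fold above Ccdc84, and the TFIID subunit Taf10 1.46-fold above Ilk, integrin-linked kinase. Prpf39, a splicing factor, had 1045, 823 and 749 counts per kilobase and Fkbp3, a nuclear immunophilin, 1097, 522 and 533, and their order changed between libraries.

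Immune genes were found in 19 pairs, all with at least 30 counts. In the 18 pairs with exactly 1 such gene, it was higher in every library in 8 and lower in 7, where the background pairs had 52.5% higher and 42.5% lower of 40. The list follows family names, so it also takes Traf3ip3 and other genes named after an immune gene. Irf5, a transcription factor best known from myeloid and B cells, had 1108, 716 and 914 counts per kilobase, 35.3-fold above Tnpo3, a nuclear import receptor for splicing factors, with 50.2, 21.1 and 15.4. Cd72, a B cell co-receptor, had 744, 339 and 823 against 65.6, 57.7 and 69.5 for Tesk1, a testis-associated kinase, and shares 1423 bases with it, or 41.6% of its exons. Both genes are best known from other cell types, and both directions could turn if the kit marks the other strand. The B cell markers summed to 28, 0 and 17 counts in the same libraries, mostly on Cd79a with 27, 0 and 17, and 3 of 5 were at 0. Of the macrophage markers Csf1r was high and Cd68 had 10, 2 and 6. Csf1r is itself a member gene, sharing 871 exon bases with Hmgxb3, so its counts depend on the strand setting too. The part of such cells in the values of Irf5 and Cd72 was not tested.

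Genes of T cell function were among the lower members in several pairs. Il12rb2, the inducible subunit of the interleukin-12 receptor that marks T-helper 1 cells, had 32.4, 19.8 and 23.99 counts per kilobase against 472, 218 and 189 for Serbp1, an mRNA-binding protein, a 10.8-fold difference, with 40.04% of its exons shared. Il16, a CD4 ligand made by T cells, had 311, 133 and 116 counts against 3807, 2279 and 3642 for Stard5, a sterol-binding protein, which was 26.9-fold higher per kilobase. Itga4, the alpha4 integrin of lymphocyte homing, had 285, 247 and 145 counts against 684, 558 and 699 for Cerkl, a gene known from retina. Nfatc3, an activation factor of T cells, had 34.5, 20.04 and 9.72 counts per kilobase against 79.7, 59.2 and 80.6 for Esrp2, a splicing regulator of epithelia. Ikzf5, of the Ikaros family, had 82, 29 and 49 counts against 1218, 1035 and 953 for Pstk, a kinase of selenocysteine synthesis, with the longest overlap of all pairs (4652 bases, 81.3% of Ikzf5). In all 5 pairs the order per kilobase held in every library.

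Other T cell genes were the higher members. Cd247, the zeta chain of the T cell receptor complex, had 381, 238 and 266 counts per kilobase, 6.57-fold above Pou2f1, a widely expressed transcription factor, with 47.3, 39.6 and 45.4. Their exons share 3007 bases, or 56.4% of Cd247. Cd52, a short surface glycoprotein of lymphocytes, had 976, 368 and 394 counts per kilobase against 2.95, 4.91 and 2.24 for Crybg2, a crystallin domain gene, with 172 bases shared. Traf3ip3 stood 1.51-fold above A130010J15Rik in the mean and above it in every library. Il18bp and Numa1, with 80 shared bases, changed sides, with Numa1 at 78.3, 29.7 and 50.1 counts per kilobase and Il18bp at 69.1, 47.3 and 69.7. Stat5a and Stat3, signal transducers of cytokine receptors that meet tail to tail over 72 bases, were alike, at 51.0, 24.1 and 21.9 and 48.4, 19.9 and 24.5 counts per kilobase, with a log2 ratio of 0.06 ± 0.22 (SD, n = 3).

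**Figure D5:**
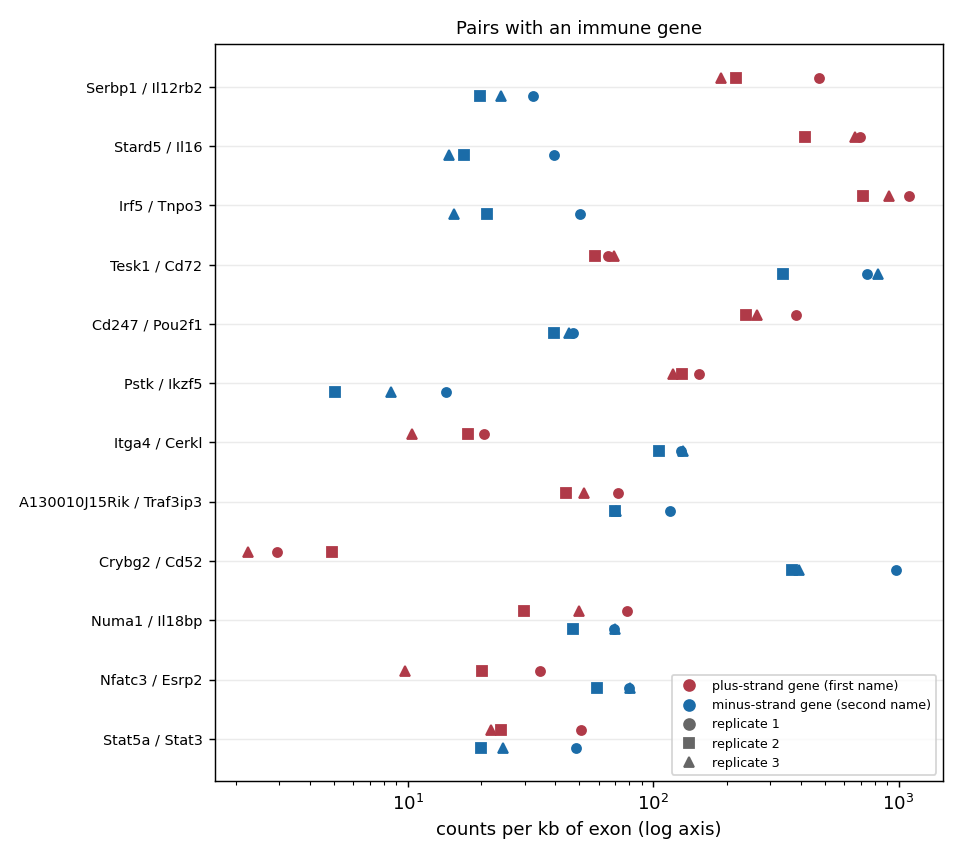
Counts per kilobase of exon (log x axis) of both genes in the 12 pairs with an immune gene and the most counts, the plus-strand gene in red and the minus-strand gene in blue, 1 symbol shape per replicate. Irf5, Cd72, Cd247 and Cd52 lie above their partners, Il12rb2, Il16, Itga4, Nfatc3 and Ikzf5 below, and Stat5a overlaps Stat3.

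Among pairs with at least 300 counts, the most-overlapped genes had no common direction. Zfp784, a zinc finger gene with 94.8% of its exons inside those of Zfp865, had 38.1, 13.5 and 39.0 counts per kilobase against 16.1, 5.48 and 9.64. G530012D18Rik (93.3% overlapped, 420 bases of exon) had 4907, 3621 and 4686 counts per kilobase, 63.9-fold above Sp110, an interferon-induced nuclear body protein, with 125, 47.2 and 53.8. Rangrf, a nuclear import cofactor overlapped by 90.7%, was the low gene, at 62.3, 78.0 and 30.7 against 708, 433 and 575 for Slc25a35, a mitochondrial carrier. Pus3, a pseudouridine synthase overlapped by 88.1%, was also low, at 82.8, 40.04 and 23.6 against 615, 444 and 557 for Hyls1, a centriole gene.

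Of the 5 pairs with the widest imbalance, 4 held a gene at or near 0 that shares exons with a gene of its own strand. Gemin4, of the SMN complex for splicing particle assembly, had 0 counts in every library beside 7813, 5350 and 6136 for Fam57a. Gm44503 and Gdf1, a growth factor gene, also had 0 counts in every library beside 493, 255 and 413 for Pigb, a GPI anchor enzyme, and 562, 323 and 316 for Upf1, the helicase of nonsense-mediated decay. Gm42878 had 1, 0 and 2 beside 1318, 519 and 1294 for Tmem116. The exons of another gene on the same strand covered 89.8% of Gemin4, 100% of Gm44503, 100% of Gdf1 and 53.8% of Gm42878. The recorded command does not ask for reads that meet 2 genes of a strand to be counted, so the values of these 4 genes are uncertain. In a library, 0 counts leave room for up to 3 through counting error. In all, 109 of the 1328 member genes share some exon bases with a gene of their own strand, and 15 share at least 50%. Such sharing was not counted over all coding genes, so these numbers have no background. Nid2, a basement membrane gene with 9, 0 and 8 counts beside 445, 274 and 129 for Rtraf, was the exception. It shares no exon bases with a gene of its own strand.

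The balanced pairs had log2 ratios within the spread of the libraries. They were Znrf1 and Ldhd, Invs and Tex10, Bccip and Dhx32, Rell2 and Fchsd1, and Farp2 and Stk25, with mean ratios between -0.03 and 0.04 and SDs between 0.42 and 1.00, and each changed sides between libraries. Ldhd, a D-lactate dehydrogenase, had 18.6, 15.6 and 18.02 counts per kilobase and the ubiquitin ligase Znrf1 25.4, 14.5 and 13.8.

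The ratios that varied most between libraries all rested on a gene at 0 counts in replicate 2. Glt8d2 had 37, 0 and 31 counts in replicates 1, 2 and 3 beside 176, 157 and 82 for Tdg, the thymine DNA glycosylase, and the log2 ratio of Tdg to Glt8d2 was 2.34, 8.40 and 1.49. Snx16, a sorting nexin, had 21, 0 and 6, Lrrc51 32, 0 and 33, Ccer2 20, 0 and 13, and Nid2 9, 0 and 8. Their partners Chmp4c, Lamtor1, Nfkbib (an inhibitor of NF-kB) and Rtraf had 59 counts or more in replicate 2. Glt8d2, Lrrc51 and Ccer2 are among the 14 genes at 0 in replicate 2 described above, and at 0 counts the size of a ratio is set by the 0.5 counts added to each gene.

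The SD of log2(CPM + 1) over the libraries, after TMM scaling, had a median of 0.42 over 1075 member genes and 0.34 over 7885 autosomal coding genes. The order depended on the scaling, since with the total count alone the medians were 0.34 and 0.43, without replicate 2 they were 0.47 and 0.26, and without replicate 3 both were 0.25. No difference in spread between members and other genes can be stated from these libraries.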

How the data were processed

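RNA-seq gene counts of 3 T-helper 1 libraries were used. Per the file headers, the authors' deposited counts are read pairs per gene from featureCounts v1.4.6-p4, with both ends aligned, strand setting 1 and exons of GENCODE vM13 on mm10. The sources used here do not name the kit or the aligner's version. Exon coordinates and lengths came from the same tables, and biotypes and names from GENCODE vM21 for 50376 of 50600 identifiers.

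Counts were divided by exon length in kilobases. Log ratios within pairs added 0.5 counts to each gene and used pairs with at least 30 counts. Background pairs are convergent coding neighbours with a gap of at most 10 kb and no opposite-strand coding exon. No test between conditions was possible with 1 group, and pairs are not replicates, so counts, medians and SDs over libraries are given. The members and lists were chosen with earlier results of these data known. Of the core list, 4 genes share a family's name only.

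Named pairs are the 10 with the most counts, the 5 most overlapped, the 5 most and 5 least imbalanced and the 5 of largest SD among pairs with at least 300 counts, 8 core machinery pairs and 12 immune pairs; 1700022I11Rik and Vcp were named for their sequences alone. The pair code was checked on simulated data. Alternatives covered pseudocounts, filters, length scaling, overlap minimum, isolated pairs, TMM (edgeR 4.0.16) against DESeq2 1.42.0 size factors, and each replicate left out. Python 3.11.15, pandas 2.3.3, SciPy 1.17.1 and R 4.3.3 were used.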

Additional observations from a re-analysis of the deposited data

How the results depend on the processing

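Members were above all coding genes in detection by 41.2 to 43.4 points, and 38.5% to 47.1% of core machinery genes lay below their partners, under each alternative run. The median log2 ratio of the more- to the less-overlapped gene (0.44) turned to -0.55 in raw counts, which follows from the shorter length of that gene, and was 0.53 without a filter, 0.33 at an overlap of at least 200 bases, 0.65 in isolated pairs and between 0.43 and 0.49 without each replicate. The percentage of pairs with that gene higher in every library was 33.8% in raw counts and between 49.6% and 50.9% without each replicate. The log2 difference between the most- and least-overlapped groups (2.54) was 2.10 as a mean of logs, 1.69 among genes that meet no further gene and between 2.41 and 2.62 without each replicate. The difference in imbalance from background pairs (-1.49) was -0.58 without a filter, between -1.96 and -1.27 without each replicate and 0.31 in pairs with both genes counted, a setting added after the data were seen. The difference in SD between members and coding genes (0.07) between libraries was -0.0906 when scaled by the total count alone, and between 0.0044 and 0.21 without each replicate. In raw counts the log2 ratios of Cand2 to Rpl32, Zfp865 to Zfp784 and Cox20 to Hnrnpu turned to 0.11, 0.67 and -2.24, through gene length. Other causes were not tested. No paired analysis was possible because there is 1 group. Genes at a few counts per library are limited by depth. Replicate 2 had 10892 autosomal coding genes at 0 counts, against 8780 in replicate 1 and 9122 in replicate 3. Total counts were 2568928 in replicate 2 and 2815439 in replicate 3, and the source of the zeros was not tested.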
